A study of Mus musculus with 6 samples.

Results

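The insulin-like growth factor (IGF) axis was described in mouse embryonic fibroblasts through 10 genes. They comprise the ligands Igf1 and Igf2, the receptor Igf1r, the growth hormone receptor Ghr, and the binding proteins Igfbp2, Igfbp3, Igfbp4, Igfbp5, Igfbp6 and Igfbp7. All probe sets that carry one of these symbols alone in the platform annotation were taken. This gave 29 of 45037 probe sets, and 10 of the 18193 genes with a single symbol. Igfbp4 has 6 probe sets, Igf1r 5, Igf1 4, Ghr and Igfbp7 3 each, Igf2, Igfbp3 and Igfbp5 2 each, and Igfbp2 and Igfbp6 1 each. Affymetrix Mouse Genome 430 2.0 arrays were hybridised with RNA of 3 Zmpste24-/- and 3 Zmpste24+/+ (wild-type) cultures, 1 array per culture. Both genotypes were of the C57BL/6 strain, were derived from E13.5 embryos, were kept in medium with 10% fetal calf serum and were collected at passage 3. Zmpste24 encodes the protease that matures prelamin A. The labels do not say whether cultures of 1 genotype came from separate litters, so p-values measure the spread between these cultures.

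IGF1 and IGF2 are secreted peptides that act through the receptor tyrosine kinase encoded by Igf1r, which signals through IRS adaptors, PI3-kinase and AKT to growth and survival. In the body much IGF1 is made by the liver under growth hormone, which acts through the receptor encoded by Ghr. Fibroblasts and other mesenchymal cells also make IGFs locally, and IGF2 is the main ligand of the embryo. The binding proteins hold IGFs in the medium or in the matrix, and proteases that cut them release the ligand.

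The arrays had been scaled to 1 level, with a trimmed mean of 500 and median signals between 56.3 and 70.5. Such scaling hides any change in the total RNA of a cell. Arrays numbered 1 stood apart in both genotypes. Across tested probe sets r was 0.985 between this pair, 0.927 to 0.934 between either of them and any other array, and 0.980 to 0.987 among the remaining 4. Zmpste24 had 365, 182 and 226 in Zmpste24-/- cultures 1, 2 and 3, against 3849.9, 2249 and 2043 in wild-type cultures. The labels do not say which part of the gene was deleted. Xist was at 69.3 and 43.7 in wild-type cultures 2 and 3 and at 4766 or more in the other 4 cultures, and the Y-linked gene Eif2s3y was at 531 and 1341 in those same cultures and at most 15.7 in the others. The genotypes thus differed in the embryos' sex by these transcripts in numbers 2 and 3, where genotype and sex cannot be told apart. Fibroblast markers were present, with all 12 above the filter on dim probe sets and a summed signal of 121522 to 132972 in Zmpste24-/- and 123645 to 137566 in wild-type cultures. The sum does not show differences of single markers, such as Dcn (values below).

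**Figure D1:**
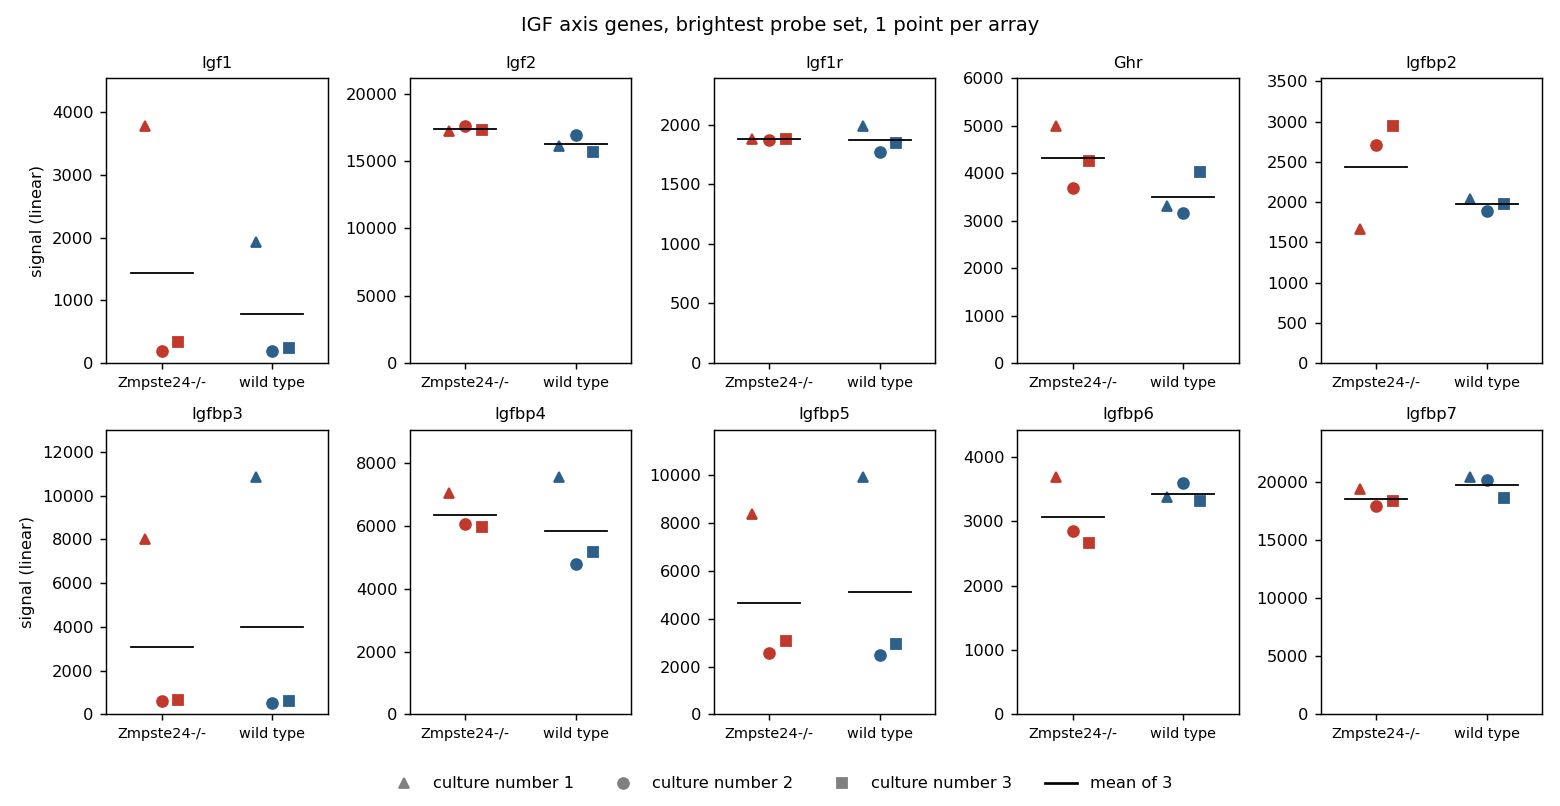
Linear signal of the brightest probe set of each gene in every array, with Zmpste24-/- cultures left of wild-type cultures. Triangles, circles and squares are cultures 1, 2 and 3, and bars are means of 3. Igf1, Igfbp3 and Igfbp5 are high in culture 1 of both genotypes, for instance 8011 and 10833 for Igfbp3, while Igf2 lies between 15703 and 17629.8 in all arrays.

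Of the ligands, Igf1 varied far more between cultures than between genotypes. Its brightest probe set (1434413_at) had signals of 3786, 183 and 329 in Zmpste24-/- cultures 1, 2 and 3, against 1936, 189.6 and 233 in wild-type cultures. Both cultures numbered 1 were high, the 4 others were low, and the ranges of the genotypes overlapped. The signal in culture 1 was 14.8 times the mean of cultures 2 and 3 in Zmpste24-/- and 9.17 times in wild type. Within number 1, the Zmpste24-/- culture had 1.96 times the wild-type signal. In numbers 2 and 3 the ratios were 0.965 and 1.41. The other 3 Igf1 probe sets gave ratios of 1.93, 2.45 and 2.03 in number 1, so all 4 were higher in the Zmpste24-/- culture there. This is 1 culture against 1, with no replicate. Macrophage markers, whose cell type is itself a source of Igf1, were also higher in the Zmpste24-/- culture within number 1. Their summed signal over 13 genes was 14932 in Zmpste24-/- culture 1 and 7975 in wild-type culture 1. It was 1598 and 1699 in Zmpste24-/- cultures 2 and 3 and 1972 and 2512 in wild-type cultures 2 and 3. In number 3 this sum was thus lower in Zmpste24-/-, while the Igf1 signal was higher. The part of macrophages in the Igf1 signal was not tested. Over all 6 arrays the log2 difference was 0.46 (limma SE 1.3, adjusted p = 0.9998), and with the culture number as a block its SE was 0.18 (adjusted p = 0.523).

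Igf2, the imprinted ligand expressed from the paternal allele, was close to level across all arrays by its brighter probe set. Whether a signal this high follows changes in the transcript was not tested. The brighter probe set (1448152_at) had 17254, 17629.8 and 17327 in Zmpste24-/- cultures and 16123, 16929 and 15703 in wild-type cultures. Every Zmpste24-/- value was above every wild-type value, by a ratio of means of 1.07. This is 0.10 on the log2 scale (SE 0.072, limma adjusted p = 0.9998, and 0.527 with the block). The second Igf2 probe set (1415931_at) was dim. It had 209, 173 and 300.5 in Zmpste24-/- cultures, against 141, 152 and 94.3 in wild-type cultures. These groups did not overlap either, and the log2 difference was 0.74 (SE 0.27, limma adjusted p = 0.9998, and 0.489 with the block). Its ratios within numbers 1, 2 and 3 were 1.48, 1.13 and 3.19, with the widest gap in number 3. Both probe sets point one way, and neither passed the threshold.

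Of the receptors, Igf1r differed little between the arrays by its brightest probe set. That probe set (1452982_at) had 1881, 1878 and 1881 in Zmpste24-/- cultures and 1993, 1773 and 1847 in wild-type cultures. The Zmpste24-/- values lay within the wild-type range. The log2 difference was 0.01, with a 95% interval of -0.16 to 0.18 in the limma fit with the block. The next probe set (1428967_at) had 1279, 1237 and 1269 in Zmpste24-/- cultures, against 1379, 1343 and 1359 in wild-type cultures. Those groups did not overlap, at a log2 difference of -0.11 (limma adjusted p = 0.9998, and 0.703 with the block). The third probe set (1426565_at) varied more, with 874, 1247 and 1278 in Zmpste24-/- cultures and 1087, 1119 and 1471 in wild-type cultures. In both genotypes it was lowest in culture 1. The probe sets of Igf1r did not share a sign, with differences between -0.23 and 0.31. The dimmest of them (1446303_at) had 17.1 to 83.1 in Zmpste24-/- and 26.6 to 47.0 in wild-type cultures.

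Ghr, which binds growth hormone and signals through JAK2 and STAT5, had higher values in the Zmpste24-/- culture of every number. Its brightest probe set (1417962_s_at) had 5001, 3697 and 4259.5 in Zmpste24-/- cultures, against 3315, 3171 and 4035 in wild-type cultures. The groups overlapped, since wild-type culture 3 was above Zmpste24-/- culture 2. The log2 differences within numbers 1, 2 and 3 were 0.59, 0.22 and 0.08, with a mean of 0.30 (SE 0.16, limma adjusted p = 0.9998). With the block the 95% interval was 0.08 to 0.52 and the adjusted p was 0.484. The other Ghr probe sets differed by 0.17 and 0.04, and each was lower in the Zmpste24-/- culture of 1 number.

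Among the binding proteins, Igfbp3, Igfbp4 and Igfbp5 followed the culture number. Igfbp3, the main carrier of IGFs in serum, was the most variable of the 10 genes over the arrays. The brighter of its probe sets (1423062_at) had 8011, 603 and 682 in Zmpste24-/- cultures, against 10833, 535 and 593 in wild-type cultures. Culture 1 was 12.5 times the mean of cultures 2 and 3 in Zmpste24-/- and 19.2 times in wild type. The genotype ratio was 0.740 in number 1 and 1.13 and 1.15 in numbers 2 and 3. The second Igfbp3 probe set gave 0.714, 1.05 and 1.19. The mean log2 difference of -0.02 (limma adjusted p = 0.9998) therefore averages values of opposite sign, and the block gave a 95% interval of -0.32 to 0.27.

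Igfbp5, a binding protein that attaches to the matrix, was likewise highest in both cultures numbered 1. The brighter probe set (1452114_s_at) had 8376, 2559 and 3055 in Zmpste24-/- cultures and 9917, 2503 and 2929.9 in wild-type cultures. Culture 1 was 2.98 times the mean of the others in Zmpste24-/- and 3.65 times in wild type. In the fit with the block the genotype difference was -0.05, with a 95% interval of -0.22 to 0.12. The dim second probe set (1422313_a_at) had 243, 122 and 109 in Zmpste24-/- and 149, 128 and 76.4 in wild-type cultures. There too culture 1 was the highest of each genotype.

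Igfbp4, an inhibitor of IGF action that the protease PAPP-A cuts, was higher in number 1 by a smaller amount. Its brightest probe set (1437405_a_at) had 7062, 6046 and 5978 in Zmpste24-/- cultures, against 7544, 4775 and 5166 in wild-type cultures. Culture 1 was again highest in both genotypes. In numbers 2 and 3 both Zmpste24-/- cultures were above both wild-type cultures, while in number 1 the order was the opposite. All 6 Igfbp4 probe sets had this order within the numbers, with log2 differences of -0.69 to -0.10 in number 1, 0.12 to 0.61 in number 2 and 0.21 to 0.81 in number 3. Over all arrays the brightest differed by 0.15 (SE 0.19, limma adjusted p = 0.9998, and 0.614 with the block).

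Igfbp2 and Igfbp6 had opposite patterns that were not those of Igfbp3. Igfbp2, which is abundant in fetal tissue, had 1661, 2709 and 2948 in Zmpste24-/- cultures, against 2042, 1891 and 1979 in wild-type cultures. The Zmpste24-/- cultures 2 and 3 were the highest arrays and Zmpste24-/- culture 1 was the lowest. Igfbp6, which prefers IGF2 over IGF1, had 3685, 2853 and 2668 in Zmpste24-/- cultures, against 3374, 3599 and 3313 in wild-type cultures. Here Zmpste24-/- culture 1 was the highest array and cultures 2 and 3 of that genotype were the lowest. The genotype differences were -0.30, 0.51 and 0.57 in numbers 1, 2 and 3 for Igfbp2 and 0.13, -0.33 and -0.31 for Igfbp6, each from a single probe set. With cultures 2 and 3 alone they were 0.54 and -0.32 (limma adjusted p = 0.168 and 0.580), and those 4 cultures differ in sex as well. Igfbp2 and Igfbp5 lie next to each other on chromosome 1 with 0 annotated genes between them, and their probe sets ordered the arrays differently.

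Igfbp7, which binds IGFs weakly and is also a matrix protein of vessels and fibroblasts, had probe sets that disagreed. The brightest (1423584_at) had 19349.7, 17858 and 18342 in Zmpste24-/- cultures and 20357, 20135 and 18589 in wild-type cultures. It differed by -0.09 between the genotypes (SE 0.077, limma adjusted p = 0.9998, and 0.580 with the block) and was not called for the culture number. The next (1423585_at) had 1043, 457 and 475 in Zmpste24-/- cultures, against 1235, 465 and 430.1 in wild-type cultures. That probe set was more than 2-fold higher in both cultures numbered 1 than in any other culture, as was not so for the brightest. Which of them reports the level of the transcript is not known here.

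**Figure D2:**
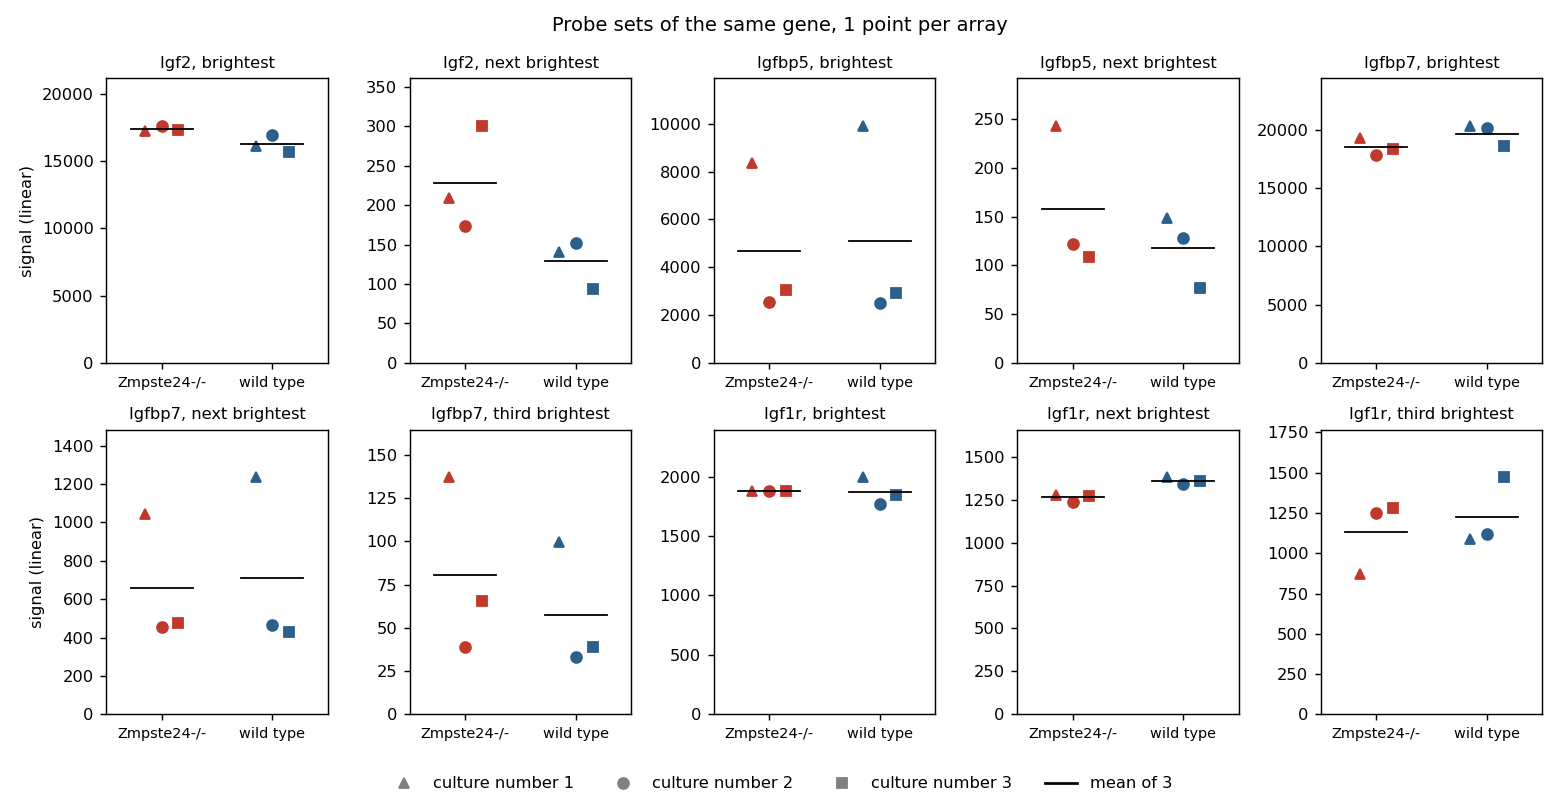
Linear signal of probe sets of Igf2, Igfbp5, Igfbp7 and Igf1r in every array, in order of brightness within a gene, with Zmpste24-/- left of wild type. For Igfbp7 the brightest probe set lies between 17858 and 20357 in all arrays, while the next is at 1043 and 1235 in cultures numbered 1 and at 430.1 to 475 in the others.

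No probe set of the axis was called between the genotypes. In limma without a block 0 of 29 axis probe sets and 0 of 27022 tested probe sets (0%) passed an adjusted p of 0.05. An unadjusted p under 0.05 was found for 1 of the 29, against 1.29% of all. That fit did not call Zmpste24 either, at a log2 difference of -3.31 (limma adjusted p = 0.987). A high adjusted p without the block thus does not show that a gene is unchanged. The limma fit with the block called Zmpste24 (adjusted p = 4.0e-05). With the block 0 of 29 passed, against 0.0185% of all, and 6 had an unadjusted p under 0.05, against 8.99% of all. These 6 were 3 probe sets of Igf1, both of Igf2 and the brightest of Ghr, all with a higher mean in Zmpste24-/-. Within number 2 the Igf1 probe sets 1434413_at and 1437401_at were lower in Zmpste24-/- (ratios 0.965 and 0.963). The adjusted p of the 6 in that fit lay between 0.484 and 0.532. Both Igf2 probe sets were higher in Zmpste24-/- with no overlap between the groups, a pattern of 2.22% of all, and 2 of Igf1r were lower without overlap, a pattern of 3.03% of all. By brightest probe sets 1 of 10 genes, Igf2, had groups apart in either direction, against 4.76% of named genes. Of the 29, 20 differed upward and 9 downward, with a median of 0.15. Over all tested probe sets 48.9% differed upward and the median was -0.00484. Of the brightest probe sets 6 were above 0 and 4 below, with a median of 0.05. Several probe sets share a gene and are not separate evidence.

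**Figure D3:**
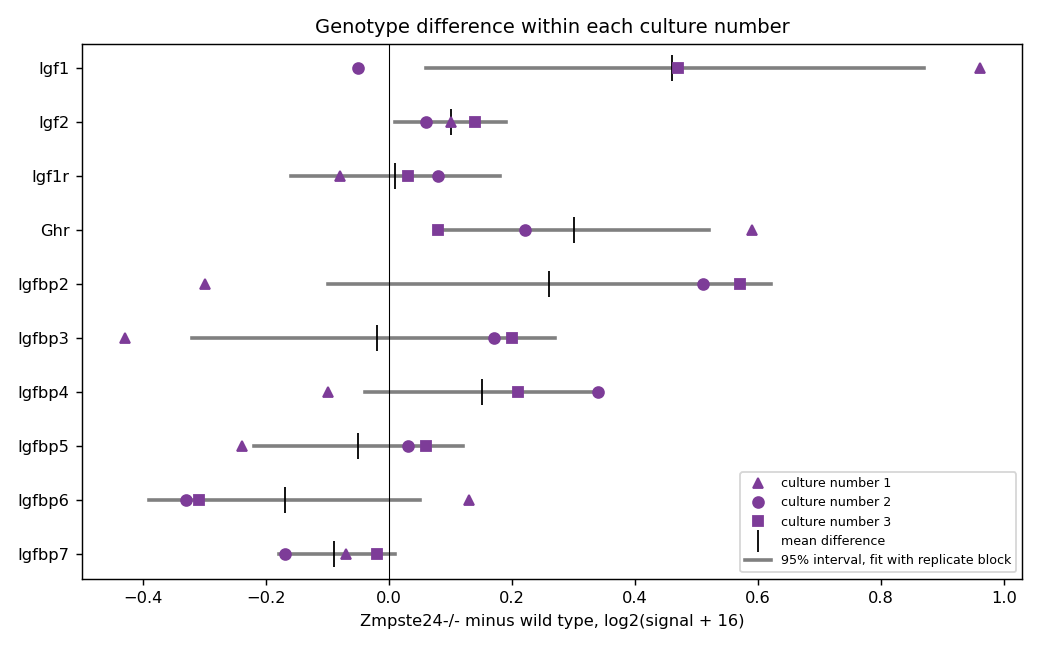
Difference of log2(signal + 16), Zmpste24-/- minus wild type, for the brightest probe set of each gene. Symbols are the differences within culture numbers 1, 2 and 3, ticks are their means, and grey bars are 95% intervals of the limma fit with the replicate block. Igf2 and Ghr lie above 0 and Igfbp7 below 0 in all 3 numbers, and for Igf1r, Igfbp2, Igfbp3, Igfbp4, Igfbp5 and Igfbp6 number 1 has the sign opposite to numbers 2 and 3.

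More axis probe sets were called by culture number than by genotype. A limma F-test of the number term, in the fit with genotype, called 16 of 29 axis probe sets at an adjusted p under 0.05, against 41.6% of all tested probe sets. The called ones belong to 6 genes, Igf1, Igf1r, Igfbp3, Igfbp4, Igfbp5 and Igfbp7, and 15 of the 16 were higher in number 1. By brightest probe sets 4 of 10 genes were called, Igf1 (adjusted p = 2.3e-05), Igfbp3 (7.0e-06), Igfbp5 (1.4e-05) and Igfbp4 (0.0141), against 47.0% of all named genes. The count of genes is thus near the background. The sizes were large in 3 of them: the mean of number 1 exceeded that of numbers 2 and 3 by 3.92 log2 units for Igfbp3, 3.48 for Igf1, 1.72 for Igfbp5 and 0.42 for Igfbp4. For Igf1, Igfbp3 and Igfbp5 both arrays numbered 1 were at least 2-fold above all 4 others, as held for 4.58% of named genes. No axis gene was 2-fold below in both, against 3.45% of named genes. Counted by probe set, 7 of the 29 were 2-fold above (4.05% of all) and 0 were 2-fold below (3.02% of all). The brightest probe sets of Igf2 (adjusted p = 0.487), Igf1r (0.735), Ghr (0.157), Igfbp2 (0.261), Igfbp6 (0.272) and Igfbp7 (0.280) were not called. The exception in sign was 1 Igf1r probe set (1426565_at), lower in number 1 at -0.38 log2 units (adjusted p = 0.0442). Without an intensity trend in limma 9 of the 29 were called, and 7727 of all 27022 in place of 11253, and in cultures 2 and 3 alone 0 were called for the number term and 16 of all 27022.

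**Figure D4:**
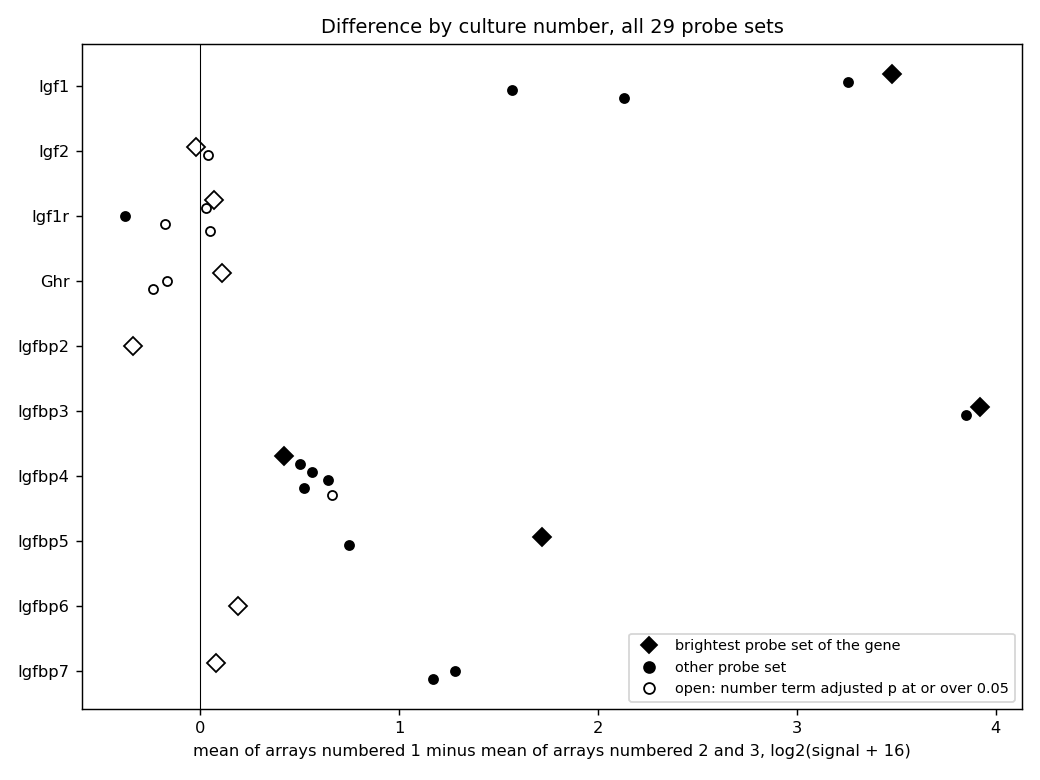
Difference between the mean of the 2 arrays numbered 1 and the mean of the 4 arrays numbered 2 and 3, on the log2(signal + 16) scale, for all 29 probe sets. Filled symbols passed an adjusted p of 0.05 in the limma F-test of the culture number, and diamonds are the brightest probe sets. Igf1 and Igfbp3 reach 3.48 and 3.92, while Igf2 lies at -0.02 and 0.04.

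Other transcripts moved with the number. Markers of cycling cells, 13 genes such as Mki67 and Top2a, had a summed signal of 16718 in Zmpste24-/- culture 1 and 16885 in wild-type culture 1. It was 57145 and 51657 in Zmpste24-/- cultures 2 and 3 and 49411 and 51328 in wild-type cultures 2 and 3. All 13 were called for the number term, against 47.0% of named genes, and lower in number 1, with a median of -2.02 log2 units. Of 12 tested macrophage markers, 11 (91.7%, against 47.0% of named genes) were called and higher in number 1. C1qa had the widest gap, with 1008 and 380 in Zmpste24-/- and wild-type culture 1 and at most 9.02 in the other 4. Csf1r had 1168 and 608 in Zmpste24-/- and wild-type culture 1 and 270.3 to 340.4 in the other 4. Laptm5 was not called (limma F-test adjusted p = 0.229). Aif1 was too dim to test, at 3.67 to 36.1 in all arrays. Skeletal muscle markers had a summed signal of 671 and 899.8 in number 1 of Zmpste24-/- and wild type, against 2296 to 4514 in the other cultures. Epithelial markers had 732 and 635 in number 1 of Zmpste24-/- and wild type, against 3056 to 3529 in the other cultures. Neural and glial markers summed to 3115, 2604 and 2368 in Zmpste24-/- cultures and to 1604, 2551 and 2227 in wild-type cultures. Adipocyte markers summed to 4916, 2839.5 and 3006 in Zmpste24-/- cultures and to 3308, 1933 and 2777 in wild-type cultures. Both of these sums, like the Igf1 signal, were higher in the Zmpste24-/- culture of number 1 than in the wild-type one. In hepatoblast and hepatocyte markers, which would mark liver cells as a source of IGFs, 6 of 8 on the array were at or under the dim filter in numbers 2 and 3, Alb and Afp among them, with sums of 406 and 379 in number 1 of Zmpste24-/- and wild type and 246 to 313 in the others. The part of these cells or of the cycling state in the axis was not tested, and in bulk RNA fewer cells of a type and less RNA per cell cannot be told apart.

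**Figure D5:**
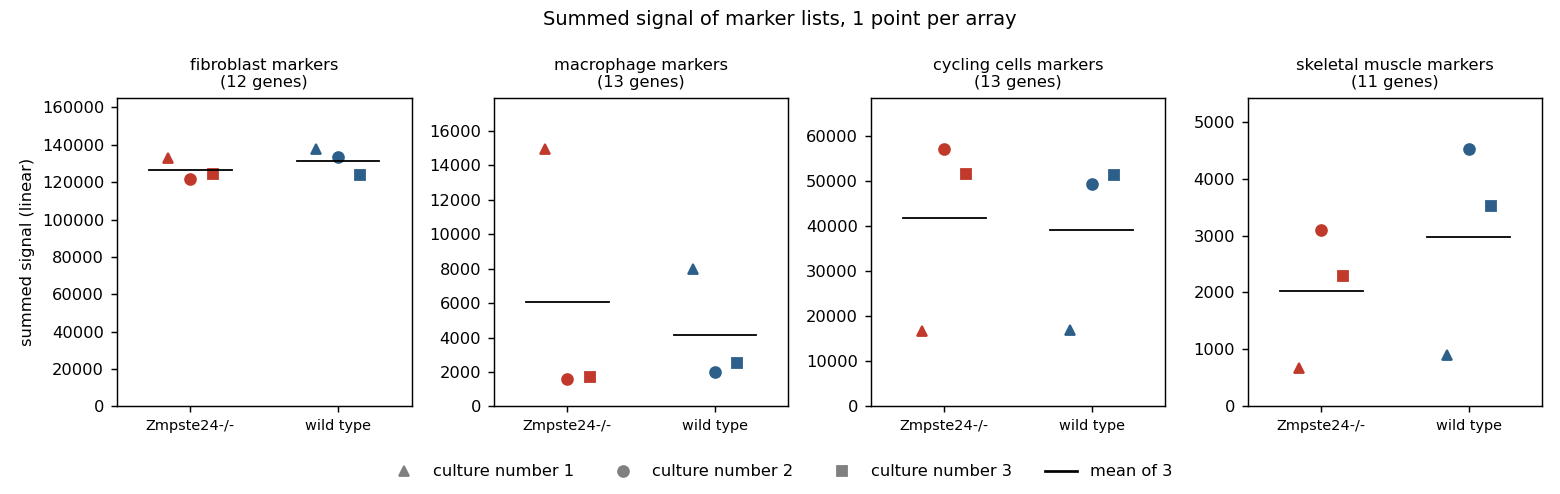
Summed linear signal of marker lists for fibroblasts, macrophages, cycling cells and skeletal muscle in every array, taking each gene's brightest probe set, Zmpste24-/- left of wild type, with bars for means of 3. Cultures numbered 1 have the highest macrophage sums (14932 and 7975) and the lowest cycling sums (16718 and 16885) of their genotypes.

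The promoters of Igf1, Igfbp3 and Igfbp5 are shown because their brightest probe sets had the largest SD of log2 values over the 6 arrays. These SDs were 1.85, 2.03 and 0.899. For each of these genes both arrays numbered 1 were also at least 2-fold above the 4 others. Each holds 250 bases before and 50 after a RefSeq start site in GRCm38.p6, on the strand of the gene. Capitals mark matches on either strand to any of 5 motifs. These are the CCAAT box, a TATA-like motif spelled TATANA, the GC box spelled GGGCGG, the forkhead core spelled GTAAACA and the AP-1 site spelled TGANTCA. The windows are chr10:87860861-87861160 on the plus strand for Igf1, chr11:7213874-7214173 on the minus strand for Igfbp3 and chr1:72874816-72875115 on the minus strand for Igfbp5.
Igf1: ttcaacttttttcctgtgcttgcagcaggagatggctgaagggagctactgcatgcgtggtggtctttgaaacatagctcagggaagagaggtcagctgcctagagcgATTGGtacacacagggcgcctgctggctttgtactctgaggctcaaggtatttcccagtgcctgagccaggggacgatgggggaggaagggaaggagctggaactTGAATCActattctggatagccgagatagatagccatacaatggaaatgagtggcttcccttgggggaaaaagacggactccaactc
Igfbp3: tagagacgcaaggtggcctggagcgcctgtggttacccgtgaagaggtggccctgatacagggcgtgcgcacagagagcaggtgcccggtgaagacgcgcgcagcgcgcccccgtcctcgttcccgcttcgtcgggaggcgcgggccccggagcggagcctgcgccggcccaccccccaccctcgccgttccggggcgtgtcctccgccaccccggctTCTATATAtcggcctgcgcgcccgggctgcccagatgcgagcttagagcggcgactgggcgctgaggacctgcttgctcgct
Igfbp5: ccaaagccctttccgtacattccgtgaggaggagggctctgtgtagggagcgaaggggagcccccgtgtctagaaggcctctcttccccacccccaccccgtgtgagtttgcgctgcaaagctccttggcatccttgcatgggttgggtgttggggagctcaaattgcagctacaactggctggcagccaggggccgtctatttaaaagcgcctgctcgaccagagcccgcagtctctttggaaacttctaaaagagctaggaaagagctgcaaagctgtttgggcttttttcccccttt
Igf1 held a CCAAT box read on the other strand and an AP-1 match starting at -37. Such motifs stand in 37.4% and 7.81% of 32851 windows of this length. Igfbp3 held overlapping TATA-like matches at -32 and -30, a motif found in 24.7% of windows. Igfbp5 held none of the 5 motifs as spelled here, and other spellings of a TATA box were not searched. No window of these 3 genes held the forkhead core (3.65% of windows) or the GC box (35.7%). The windows of Igf1, Igfbp3 and Igfbp5 were 52.3%, 71.7% and 56.3% G and C. None of the 5 motifs, as spelled, was shared by the 3 genes.

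Among other ligand, receptor and carrier genes, 3 of 11 were tested and 0 were called between the genotypes in limma, as was so for every list below with and without the block. Igf2r, the receptor that removes IGF2 for degradation, had 3754, 1827 and 2081 in Zmpste24-/- cultures, against 4455, 2217 and 2423 in wild-type cultures. It was lower in the Zmpste24-/- culture of every number, at a log2 difference of -0.25 (adjusted p = 0.390 with the block), while the groups overlapped through the cultures numbered 1. For the number term Igf2r (adjusted p = 7.6e-05) and Insr, the insulin receptor, were called (2 of 3, against 47.0% of named genes) and higher in number 1, by 0.94 and 0.77 log2 units. Between the genotypes Insr differed by -0.12 and Ins2, an insulin gene at 34.0 to 114 in all arrays, by -0.54 (adjusted p = 0.804 and 0.617 with the block). Of regulators of Igf2 mRNA, 4 of 8 were tested and all 4 were called for the number term, against 47.0% of named genes. Hmga2 and Igf2bp1, which are expressed in embryonic and growing cells, were lower in number 1, at -1.41 and -1.87, and so was Igf2bp3 (-0.62). Neither probe set of Igf2 itself was called for the number term. Plagl1, an imprinted transcription factor, was higher in number 1 (0.51) and differed by 0.32 between the genotypes (adjusted p = 0.270 with the block). Hmga2, Igf2bp1 and Igf2bp3 differed by -0.08, -0.08 and 0.06 between the genotypes.

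Of 11 tested genes for proteases that cut binding proteins and their inhibitors, 9 (81.8%) were called for the number term, 7 higher and 2 lower in number 1, against 47.0% of named genes, of which 3335 were higher and 2796 lower. Mmp3 and Mmp2, which encode matrix metalloproteases, had 2999 and 9566 in Zmpste24-/- culture 1 and 4959 and 8439.6 in wild-type culture 1. In the other cultures Mmp3 lay between 235 and 456 and Mmp2 between 2344 and 2790.2. Pappa, which encodes PAPP-A, the protease of Igfbp4, was higher in number 1 by 1.16 log2 units and differed by 0.19 between the genotypes, and the lysosomal protease gene Ctsd was higher in number 1 by 0.76. The PAPP-A inhibitors moved apart: Stc1 was higher by 1.04 and Stc2 lower (-1.69). Between the genotypes Stc2, Stc1 and Htra1 differed by -0.36, -0.27 and -0.24, with adjusted p of 0.521, 0.524 and 0.542 with the block.

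Of 27 tested signal transducers, 11 were called for the number term, 9 higher and 2 lower in number 1, a share of 40.7% against 47.0% of named genes. Pik3r1, the regulatory subunit of PI3-kinase, was higher by 1.43, Pik3r2, another such subunit, was higher by 0.91 and Eif4ebp1, a target of mTOR, was lower (-0.91). Between the genotypes Irs1, the adaptor of the IGF1 receptor, had 4990, 3829.5 and 3651 in Zmpste24-/- cultures, against 4547, 2757 and 2996 in wild-type cultures. It was higher in each number, at 0.30 (adjusted p = 0.377 with the block). The adaptors Grb14 and Shc1 differed by -0.31 and -0.22 (0.405 and 0.512), and Pik3r1 by 0.28 (0.498). Of growth hormone receptor signalling, 3 of 10 tested genes (30.0%) were called for the number term, against 47.0% of named genes. Jak2, the kinase of Ghr, had 654, 637 and 781 in Zmpste24-/- cultures, against 553, 520.3 and 600.2 in wild-type cultures. These groups did not overlap, and the difference was 0.30 (0.484 with the block). Socs3, a feedback inhibitor of cytokine receptors, differed by -0.29 (0.484) and was higher in number 1 by 1.36, as were Stat3 and Socs1 by 0.41 and 0.69. Sirpa and Stat5b differed by 0.22 and 0.16 between the genotypes.

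FOXO factors, whose activity AKT signalling holds down, were listed with their targets. Of 17 tested genes in this list 12 (70.6%, against 47.0% of named genes) were called for the number term, all 12 higher in number 1. Whether AKT signalling differed between the cultures was not tested. Sesn3, Pdk4 and Bcl2l11 were higher by 2.75, 2.46 and 1.69 log2 units. Sesn3 had 2803, 362 and 370.1 in Zmpste24-/- and 2666, 459 and 384 in wild-type cultures. Between the genotypes Fbxo32, Sesn2, Sesn3 and Klf9 differed by 0.20, -0.13, -0.10 and 0.05, and the smallest adjusted p of this list was 0.743 with the block. Immediate early genes, which growth factors induce, were called in 12 of 16 (75.0%, against 47.0% of named genes), of which 10 were lower and 2 higher in number 1. Egr2, Fosl1, Ier2 and Jun were among the lower, at -2.70, -2.09, -1.28 and -1.01. Ccnd1, a cyclin of G1, was among the higher, at 0.49 (limma F-test adjusted p = 0.00125). Between the genotypes Egr2 differed by -0.67 and Ccnd1 by -0.18, with adjusted p of 0.484 and 0.489 with the block. Egr3 and Dusp1 differed by -0.35 and 0.14.

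The genes most like the 3 most variable members were taken by Pearson's r of log2 values over the 6 arrays, with no test. For Igfbp3 they were Scrg1, Fam102b and Man1a (0.9997, 0.9995 and 0.9990). For Igf1 they were Arcn1, Smarca1 and Pid1 (0.9994, 0.9987 and 0.9985), and for Igfbp5 Rab9, Galnt13 and Atp6v0a2 (0.9997, 0.9989 and 0.9988). Such values rest on the gap between number 1 and the other arrays, which many genes share: 1685, 1418 and 1575 of 13038 named genes had r over 0.95 with Igfbp3, Igf1 and Igfbp5. A high r does not tell the size of that gap. Scrg1 had 894, 22.4 and 31.7 in Zmpste24-/- cultures, against 1246, 15.7 and 21.9 in wild-type cultures. Arcn1 had 4536, 3649 and 3826 in Zmpste24-/- cultures, against 4327, 3688 and 3737 in wild-type cultures. Its SD of log2 values was 0.133, against 1.85 for Igf1.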

How the data were processed

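The series' table holds deposited intensity values on a linear scale, 1 per probe set. The authors produced them in GCOS, the Affymetrix software, per the submitters' processing notes. The sources used here give neither its release nor its settings. Of 45101 probe sets 64 controls were left out. Symbols came from the platform annotation, matched by gene identifier to RefSeq (GRCm38.p6), whose promoter table held all 10 genes. Values were analysed as log2(value + 16), a scale that understates fold changes at low signal. Probe sets in the lowest 40% of mean signal (39.4 or less) were left out, and 27022 were tested, among them all 29 of the axis. Tests used limma 3.58.1 (R 4.3.3) with a trend on intensity and Benjamini-Hochberg adjustment over all tested probe sets at 0.05. They were checked on simulated data. The simulated noise was the residual spread of the fit with the block, and few probe sets carried a number effect. The check thus does not cover the fit without a block under the number differences of these arrays. Each gene is represented by its brightest probe set. Same-numbered cultures deviated together (r = 0.829, 0.588 and 0.574, over the limit of 0.1). Zmpste24-/- culture 2 with wild-type culture 3, and culture 3 with 2, had r of 0.551 and 0.487, so the values set number 1 apart more than they tell 2 from 3. Since the labels also speak of pairs, a second fit took the culture number as a block. The number term was tested in that fit.

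The members, the lists and the tests were chosen with earlier results of these data known. From each other list up to 4 genes by genotype p with the block and up to 3 by number p were named. Mki67, Top2a, C1qa, Csf1r, Laptm5, Aif1, Dcn, Alb and Afp were named after their values were seen. Alternatives were pseudocounts of 1 and 64, no filter or one of 60%, quantile normalization, median centring, no trend, array weights, the block, a threshold of 0.1, cultures 2 and 3 alone, averaging of a gene's probe sets, and leaving out each array. The 3 arrays per group limit the precision. Figures were drawn with matplotlib 3.10.9.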

Additional observations from a re-analysis of the deposited data

How the results depend on the processing

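Without a block 0 probe sets were called between the genotypes. With array weights 1 was called, with the replicate block 5, with replicates 2 and 3 alone 20, and with 1 array left out 0 to 4. The 4 were without wild-type culture 1. For the axis this count stayed at 0 in all alternatives. For the number term 9 axis probe sets were called with no intensity trend, in place of 16, and 7727 of all in place of 11253. With replicates 2 and 3 alone 0 of the axis and 16 of all were called. With 1 array left out the axis count was 12 to 16 and the count of all 8345 to 10815. The sign of small genotype differences depended on the setting. Igfbp3 (-0.02) was 0.16 with array weights and 0.18 with replicates 2 and 3 alone. Igfbp5 (-0.05) was 0.09 with array weights, 0.05 with replicates 2 and 3 alone and 0.15 by the mean of its probe sets. Igf1r (0.01) was 0 after quantile normalization and -0.03 by the mean of its probe sets, and Igfbp7 (-0.09) was 0.08 by that mean. With 1 array left out Igf1 ranged from -0.82 to 1.5, Igfbp3 from -1.23 to 1.39, Igfbp5 from -0.58 to 0.57 and Igf1r from -0.03 to 0.05, since the number 1 cultures then weigh unequally in the genotypes. The replicate block changed no call of an axis gene.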
